A study of Mus musculus with 9 samples.

Results

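The H3R2me2a regions that stood high in both wild-type libraries were 318 peaks in cells labelled as mouse bone marrow and described in the series' design as leukemia cells. They are the peaks of wild-type (WT) replicate 1 whose summit held 9 or more overlapping fragments, on chromosomes 1 to 19, that shared at least 1 bp with a WT replicate 2 peak of 9 or more fragments. The rule left out 5 segments of mm10, which lie at 53.5 to 120 Mb of chromosome 2, 143.5 to 150 Mb of chromosome 4, 14 to 16 Mb of chromosome 5, 47 to 48 Mb of chromosome 6 and 19 to 21 Mb of chromosome 8. The members are 318 of the 165304 peaks in the WT replicate 1 list, or of 153089 on the same chromosomes outside the segments, and they met 287 separate peaks of WT replicate 2. The summit heights in the 2 WT lists chose the members, so those heights are given as a description, and only the 4 knockout lists, which the rule did not use, bear on whether the regions recur. Chromatin immunoprecipitation with sequencing (ChIP-seq) had been done with 1 H3R2me2a antibody on 2 libraries each of wild-type cells, of Prmt6 knockout cells (Prmt6KO) and of Igf2bp2 knockout cells (Igf2bp2KO). All had been grown in medium with interleukin 3, interleukin 6 and stem cell factor, per the labels. The labels name no strain, age or leukemia-driving gene, give no extent of the deletions, and do not tell whether libraries of 1 genotype are from different animals or cultures, so a spread between libraries may be technical.

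H3R2me2a is asymmetric dimethylation of arginine 2 in the tail of histone H3, and PRMT6 is the main enzyme known to write it. The mark is known to counteract the trimethylation of the neighbouring lysine 4 that marks active promoters. IGF2BP2 binds m6A-modified messenger RNA and is not an enzyme of histones.

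The lists differed in length and depth. They held 165304 and 134492 peaks in WT and 814517 and 431638 in Prmt6KO, against 1028 and 1261 in Igf2bp2KO. The background, the fragments expected at a site without enrichment, was 1.46 and 1.44 in WT and 0.736 and 1.21 in Prmt6KO, against 1.45 and 1.34 in Igf2bp2KO. The lowest listed summits had 4 and 4 fragments in WT and 2 and 3 in Prmt6KO, against 8 and 7 in Igf2bp2KO, so a member with a summit below 7 fragments could not be listed in Igf2bp2KO. On the sex chromosomes WT replicate 1 was unlike the other libraries, with 1.23% of its peaks on X and 1.35% on Y against 7.68% and 0.0297% in WT replicate 2, and values for members chosen from either WT library alone are therefore given too. The 3 input libraries were not analysed here, so whether the members also stand out without the antibody was not tested.

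A small share of members reached the start of a gene. Of the 318, 10 (3.14%) overlapped a promoter window (250 bases before to 50 after a gene start, RefSeq, GRCm38.p6, which is mm10), against 0.348% of all WT replicate 1 peaks. Members are wider than other peaks: all 10 were among the 249 members of 400 bp or wider (4.02%), where 0.527% of WT replicate 1 peaks of that width reached one. The cluster of 17 members over the Ugt1a genes holds 4 of the 10 windows (Ugt1a1, Mroh2a, Hjurp and Trpm8). The windows shown next are those at Sp140, which encodes an interferon-induced nuclear body protein, at Hjurp, the chaperone of the centromeric histone CENP-A, at Trpm8, which encodes the cold-sensing ion channel, and at the predicted genes Gm40237 and Gm32584. They are shown because each of these 5 lies in or at the edge of a member, and because the Sp140 window has near copies at other genes while that of Gm40237 repeats a short unit. They run 5′ to 3′ along the gene. The 3 Sp140-like windows are in lower case, with the base that differs from Sp140 within the aligned stretch in capitals. Their bases outside that stretch were not compared and carry no mark. In the windows of the other genes, capitals mark the bases that lie inside the WT replicate 1 peak.
Sp140 (chr1:85600453-85600752, plus strand): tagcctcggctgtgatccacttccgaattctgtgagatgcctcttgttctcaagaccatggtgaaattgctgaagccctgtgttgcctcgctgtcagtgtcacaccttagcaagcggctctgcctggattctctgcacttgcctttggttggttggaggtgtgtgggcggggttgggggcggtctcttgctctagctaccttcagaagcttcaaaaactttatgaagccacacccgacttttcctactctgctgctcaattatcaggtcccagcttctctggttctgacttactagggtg
A530032D15Rik (chr1:85109804-85110103, minus strand): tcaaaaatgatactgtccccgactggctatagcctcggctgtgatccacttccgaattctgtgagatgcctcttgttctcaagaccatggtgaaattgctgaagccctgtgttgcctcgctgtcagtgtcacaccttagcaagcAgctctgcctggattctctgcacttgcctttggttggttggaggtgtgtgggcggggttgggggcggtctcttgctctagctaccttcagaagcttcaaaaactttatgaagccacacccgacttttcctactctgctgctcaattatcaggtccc
C130026I21Rik (chr1:85270517-85270816, minus strand): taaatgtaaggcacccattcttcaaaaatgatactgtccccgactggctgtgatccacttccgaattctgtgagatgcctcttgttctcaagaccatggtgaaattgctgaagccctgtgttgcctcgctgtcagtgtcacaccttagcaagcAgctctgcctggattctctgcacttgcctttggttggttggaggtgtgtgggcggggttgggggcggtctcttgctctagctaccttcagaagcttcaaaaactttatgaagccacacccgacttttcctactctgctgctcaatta
Hjurp (chr1:88277530-88277829, minus strand): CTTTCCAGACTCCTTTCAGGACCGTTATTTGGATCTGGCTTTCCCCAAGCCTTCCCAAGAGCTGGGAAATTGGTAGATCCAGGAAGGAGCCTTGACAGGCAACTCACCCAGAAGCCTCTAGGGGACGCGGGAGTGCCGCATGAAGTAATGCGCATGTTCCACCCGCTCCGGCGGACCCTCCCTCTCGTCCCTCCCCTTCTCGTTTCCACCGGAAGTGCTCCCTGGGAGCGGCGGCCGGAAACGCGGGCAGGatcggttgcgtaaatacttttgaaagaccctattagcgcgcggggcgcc
Trpm8 (chr1:88306485-88306784, plus strand): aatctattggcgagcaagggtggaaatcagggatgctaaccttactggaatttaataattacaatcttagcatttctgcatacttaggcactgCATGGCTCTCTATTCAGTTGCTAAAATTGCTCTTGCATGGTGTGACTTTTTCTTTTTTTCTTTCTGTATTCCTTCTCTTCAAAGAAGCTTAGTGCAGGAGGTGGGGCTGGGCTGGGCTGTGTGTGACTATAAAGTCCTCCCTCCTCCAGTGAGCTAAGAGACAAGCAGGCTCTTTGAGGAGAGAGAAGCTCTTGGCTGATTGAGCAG
Gm40237 (chr4:118547156-118547455, plus strand): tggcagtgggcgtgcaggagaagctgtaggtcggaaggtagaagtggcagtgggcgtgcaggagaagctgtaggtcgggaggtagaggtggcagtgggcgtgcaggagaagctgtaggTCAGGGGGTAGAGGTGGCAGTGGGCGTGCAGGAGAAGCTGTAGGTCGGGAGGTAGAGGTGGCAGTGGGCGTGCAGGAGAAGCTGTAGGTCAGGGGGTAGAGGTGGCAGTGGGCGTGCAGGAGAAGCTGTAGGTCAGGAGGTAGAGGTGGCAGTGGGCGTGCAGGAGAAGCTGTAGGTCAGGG
Gm32584 (chr5:36661609-36661908, minus strand): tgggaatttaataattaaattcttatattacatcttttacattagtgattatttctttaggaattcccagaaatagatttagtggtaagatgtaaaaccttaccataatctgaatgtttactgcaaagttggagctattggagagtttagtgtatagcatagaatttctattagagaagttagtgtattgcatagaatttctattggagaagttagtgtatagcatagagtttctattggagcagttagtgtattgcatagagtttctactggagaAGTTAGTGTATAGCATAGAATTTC

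The Sp140 window lay wholly inside a member (chr1:85600200-85601334). It belongs to a start within the gene, since the gene table begins Sp140 at position 85587491. Its near copies at A530032D15Rik and C130026I21Rik matched it at 99.6% over 271 and 255 aligned bases, with 1 differing base each, and lay outside members, 2265 and 10496 bp from the nearest. The Sp140 member held 12 and 9 fragments in WT, 9 and 11 in Prmt6KO, and 11 in Igf2bp2KO replicate 1, with no peak in Igf2bp2KO replicate 2. Of the 10 windows at members, 2 had a near copy at another gene (at least 95% identity over at least 200 bases), where 1755 of all 32851 windows (5.34%) did. In the Gm40237 window, 97.6% of bases equalled the base 88 positions further on. This was the best lag, which can span more than 1 repeat unit. Of all windows, 25 (0.0761%) reached 75% at any lag from 10 to 100 bases. The Gm40237 member (chr4:118547274-118548730) held 16 and 14 fragments in WT and 19 and 21 in Prmt6KO, against 35 and 14 in Igf2bp2KO. At Gm32584 the best lag was 33 bases, with 58.4% of bases equal, where the median window had 33.8%. The 10 windows were poorer in CpG than windows in general, with a median observed over expected CpG of 0.0995 against 0.384, and a median GC content of 47.8% against 52.7%. Hjurp differed, with 22 CpG in its window and a ratio of 0.827. Sequences of the other members were not used here.

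Nearly every member recurred in the cells that lack Prmt6. A member was counted as found in a list when a peak of any height overlapped it by 1 bp or more. Prmt6KO replicate 1 held 301 of the 318 (94.7%, Wilson 95% interval 91.6 to 96.6) and replicate 2 held 307 (96.5%, 93.9 to 98.1), where 21.1% and 14.6% of all WT replicate 1 peaks were found. Both Prmt6KO lists held 294 members (92.5%, against 4.15% of all WT replicate 1 peaks), and neither held 4 (1.26%, against 68.5%). The intervals cover counting error alone, and neighbouring members are not independent.

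The far shorter Igf2bp2KO lists held fewer members. Replicate 1 held 146 (45.9%, 40.5 to 51.4) and replicate 2 held 152 (47.8%, 42.4 to 53.3), against 0.167% and 0.167% of all WT replicate 1 peaks. Both Igf2bp2KO lists held 107 members (33.6%, against 0.0849%) and neither held 127 (39.9%, against 99.8%). The peaks that met members made up 13.7% and 11.8% of the Igf2bp2KO lists, and 0.0343% and 0.0635% of the Prmt6KO lists. All 107 members present in both Igf2bp2KO lists were also in both Prmt6KO lists, so 107 members stood in all 6 lists, against 0.0843% of all WT replicate 1 peaks in the 4 knockout lists. Of all WT replicate 1 peaks, 130 were in both Igf2bp2KO lists and 129 in all 4 knockout lists. These counts include the 107 members, and the nesting was thus not particular to members. A further 106 members were in both Prmt6KO lists and in no Igf2bp2KO list, 39 and 42 were in both Prmt6KO lists and in Igf2bp2KO replicate 1 or replicate 2 only, and 0 members were in both Igf2bp2KO lists while missing from both Prmt6KO lists. For these last patterns the shares of all WT replicate 1 peaks were not counted, so nothing is read from them.

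**Figure D1:**
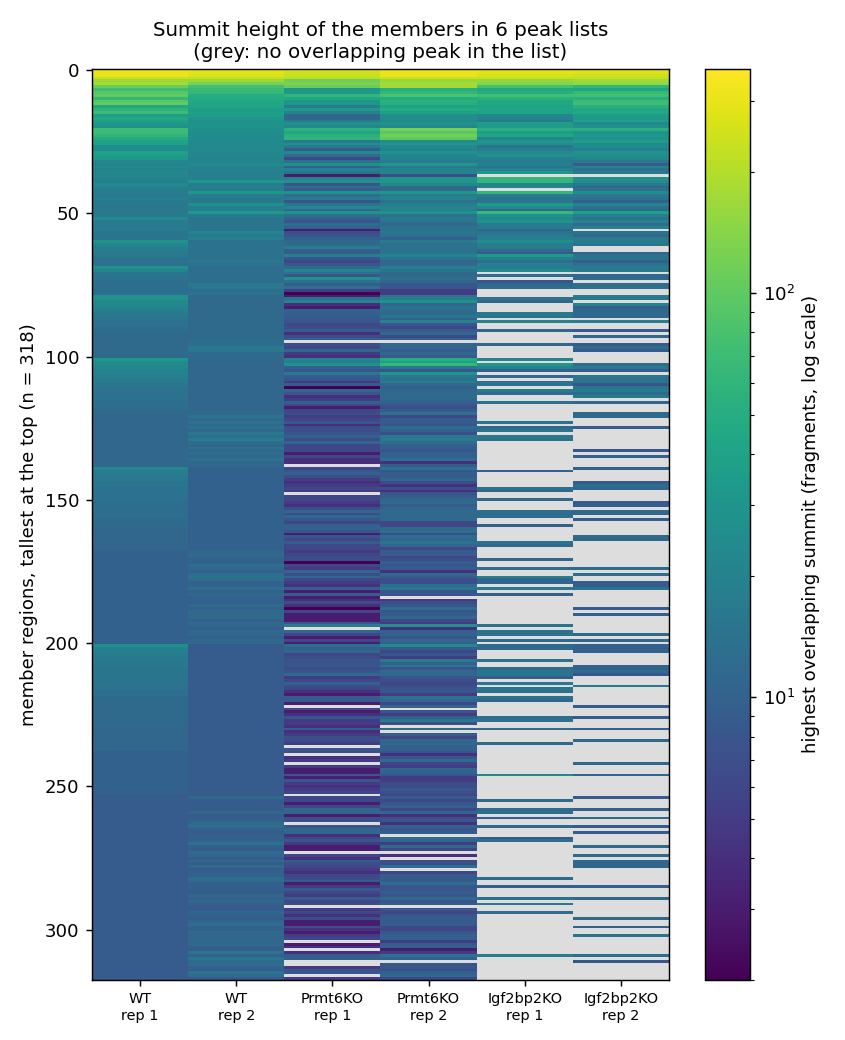
Height of each member's highest overlapping summit (colour, fragments, log scale) in the 6 lists (columns), with the 318 members in rows ordered by the lower of their 2 WT heights. The tallest members are coloured in every column, and grey cells, which mark no overlapping peak, fill most of the lower part of the Igf2bp2KO columns.

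The difference between the knockouts depended on the height asked for. With any peak counted, Prmt6KO libraries held 95.6% ± 1.33 of members (SD, n = 2) and Igf2bp2KO libraries 46.9% ± 1.33 (SD, n = 2), a difference of 48.7 percentage points (two-sided exact permutation test, p = 0.333, the smallest that 6 splits of 2 against 2 allow). With only summits of at least 6 times the list's own background counted, Prmt6KO held 76.4% and 76.1% of members, against 2.52% and 0.665% of all WT replicate 1 peaks. Igf2bp2KO then held 45.6% and 46.5%, against 0.166% and 0.159%. The difference was 30.2 points (exact permutation p = 0.333). At a fixed 9 fragments, the height the rule asks of WT, Prmt6KO held 35.8% and 64.5%, against 0.137% and 0.389% of all WT replicate 1 peaks, on either side of the same 45.6% and 46.5% (backgrounds 0.166% and 0.159%) in Igf2bp2KO. That difference was 4.09 points (exact permutation p = 1.0), smaller than the spread of 20.2 between the Prmt6KO libraries, whose backgrounds were 0.736 and 1.21 fragments.

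Members found and members missed differed in their WT height. The 217 members whose lower WT summit held 9 to 11 fragments were found at 92.6% and 95.4% in Prmt6KO and at 30.4% and 31.3% in Igf2bp2KO. For the 65 members of 12 to 19 fragments the shares were 98.5% and 98.5%, and 67.7% and 73.8%. All 26 members of 20 to 49 fragments and all 10 of 50 to 343 fragments were in each of the 4 knockout lists. In the lowest class, summits found in Igf2bp2KO had medians of 13 and 11 fragments and none was below 9 and 8, while those in Prmt6KO had medians of 6 and 9. At the threshold itself, the 117 members whose lower WT summit was exactly 9 were found at 88.9%, 92.3%, 25.6% and 26.5% in Prmt6KO replicates 1 and 2 and Igf2bp2KO replicates 1 and 2. The 202 replicated peaks just outside, with a lower summit of 8, were found at 71.3%, 81.7%, 14.9% and 11.9%.

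**Figure D2:**
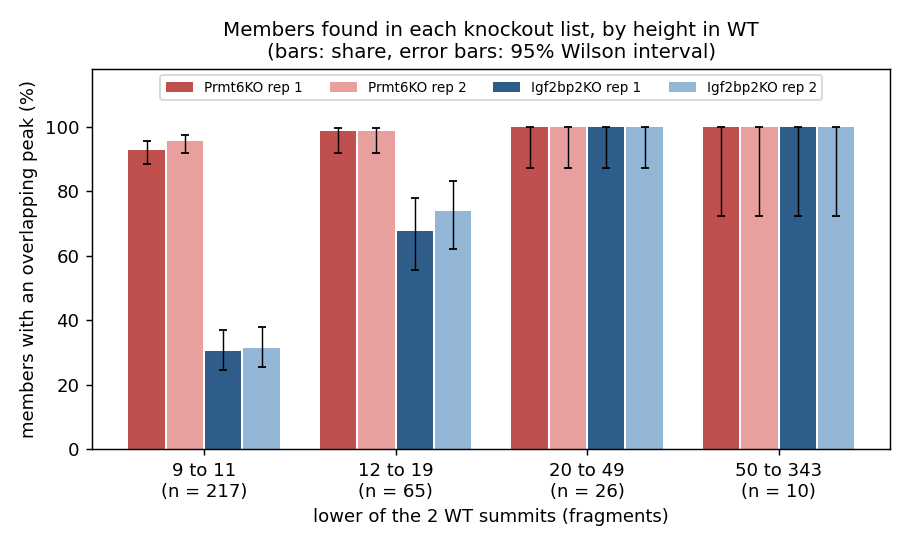
Share of members with an overlapping peak (%, bars) in each of the 4 knockout libraries, for 4 classes of the lower WT summit in fragments, with 95% Wilson intervals. Prmt6KO bars stand at 92.6% or above in each class, and Igf2bp2KO bars go from 30.4% and 31.3% in the lowest class to 100% in the upper classes.

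Members were found in the knockouts more often than high WT replicate 1 peaks that WT replicate 2 lacked. WT replicate 1 had 3135 peaks of 9 or more fragments on the same chromosomes that met no WT replicate 2 peak. These were found at 25.2% and 20.5% in Prmt6KO and at 0.191% and 0.159% in Igf2bp2KO, near the 21.1%, 14.6%, 0.167% and 0.167% of all peaks. Members lay above them in 4 of 4 knockout libraries, by 59.7 points on average (exact sign-flip permutation test over 4 libraries, p = 0.125, the smallest possible). Presence in WT replicate 2 defines both sets, so the choice itself favours such a gap, which is given as a description. The sets also differed in height, with a median WT replicate 1 summit of 12 fragments in members and 9 in the unreplicated peaks. With both sets held to WT replicate 1 summits of 9 to 11 fragments, 147 members were found at 90.5%, 94.6%, 23.1% and 25.2%, and 3050 unreplicated peaks at 24.7%, 19.8%, 0.131% and 0.0656%, an average gap of 47.2 points (exact sign-flip permutation p = 0.125). WT replicate 2 still defines both of these sets, so this gap too is a description. The 452 peaks whose WT replicate 2 partner was below 9 fragments lay between, at 57.7%, 59.7%, 7.74% and 5.75%.

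Members were also wider than other peaks. Their median width was 695 bp (range 204 to 38697), and 93 (29.2%) reached 1 kb, while all WT replicate 1 peaks had a median of 221 bp with 0.127% reaching 1 kb. The unreplicated peaks of 9 or more fragments had a median of 291 bp. Among regions under 400 bp, the 69 members were found at 85.5%, 89.9%, 29.0% and 31.9% and the 2645 unreplicated peaks at 23.0%, 18.2%, 0.189% and 0.113%. Among regions of 400 bp or wider, the 249 members were at 97.2%, 98.4%, 50.6% and 52.2% and the 490 unreplicated peaks at 37.3%, 33.1%, 0.204% and 0.408%. The gap was thus present at both widths in each of the 4 libraries. It remains a description, since presence in WT replicate 2 defines both sets.

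**Figure D3:**
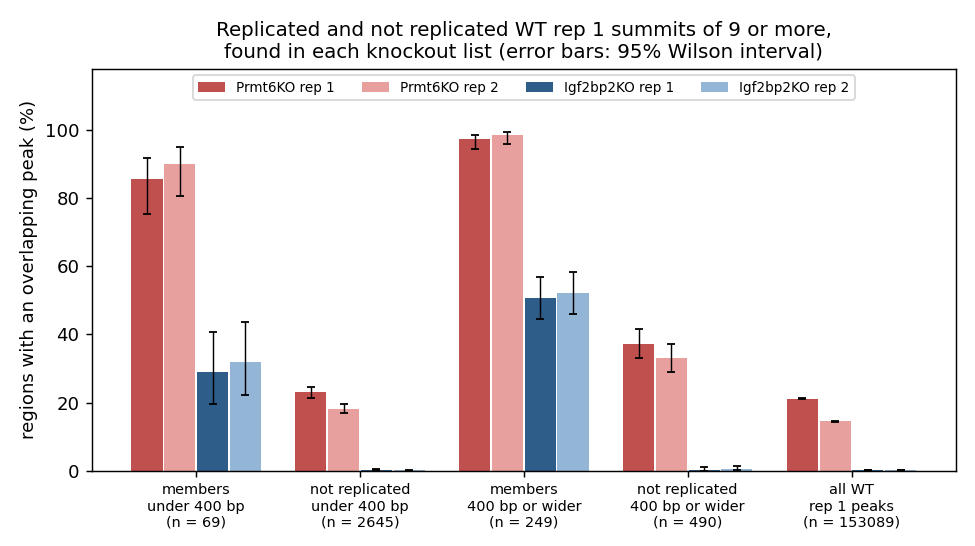
Share of WT replicate 1 regions with an overlapping peak (%, bars, with 95% Wilson intervals) in the 4 knockout libraries, for members and for peaks of 9 or more fragments without a WT replicate 2 partner, each under and over 400 bp wide, and for all WT replicate 1 peaks. Narrow members reach 85.5% and 89.9% in Prmt6KO where narrow unreplicated peaks reach 23.0% and 18.2%.

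Chosen from 1 WT library alone, high peaks were found above the share of all peaks of their list in each of the other 5 libraries. Of the 3905 WT replicate 1 peaks of 9 or more fragments, 19.7% were in WT replicate 2, against 5.24% of all WT replicate 1 peaks. In Prmt6KO they were at 34.6% and 31.2%, against 21.1% and 14.6%, and in Igf2bp2KO at 4.79% and 4.69%, against 0.167% and 0.167%. Of the 1866 such peaks of WT replicate 2, 30.1% were in WT replicate 1, against 6.83% of all WT replicate 2 peaks. They were at 37.7% and 37.4% in Prmt6KO (18.6% and 14.1% of all) and at 9.38% and 9.54% in Igf2bp2KO (0.223% and 0.221% of all). Counted at 6 times the own background, the set from WT replicate 1 was at 8.14% in WT replicate 2 (0.432% of all), 13.2% and 10.0% in Prmt6KO (2.52% and 0.665%) and 4.76% and 4.56% in Igf2bp2KO (0.166% and 0.159%). The set from WT replicate 2 was then at 16.7% in WT replicate 1 (0.738% of all), 20.4% and 17.1% in Prmt6KO (2.38% and 0.797%) and 9.32% and 9.32% in Igf2bp2KO (0.222% and 0.209%). The lists differ in length and so in the share of all peaks found, and with 1 WT library left to follow into, no test between WT and a knockout could be made from these shares.

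The members lay in a few dense clusters and many single sites. Members no more than 200 kb apart were joined, which gave 119 loci, 94 of them with 1 member. The 6 loci with 16 or more members held 149 members (46.9%). All 19 chromosomes carried a member, and 55 members lay within 300 kb of the first WT peak of their chromosome. The share of all WT replicate 1 peaks that lay so close was not counted, so nothing is read from the 55. Members of the 6 large loci were found at 96.6% and 99.3% in Prmt6KO and at 42.3% and 43.0% in Igf2bp2KO. The 94 members that stood alone were found at 92.6%, 90.4%, 41.5% and 46.8%, so the shares did not rest on the clusters.

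The Sfi1 locus was the tallest of the large clusters. Sfi1 encodes a centrosomal protein and lies near the start of chromosome 11, and 32 members spanned 99.9 kb there (chr11:3100126-3200062), 28 of them in or within 1 kb of the gene. Their heights had medians of 16 and 16 fragments in WT and 11 and 16.5 in Prmt6KO, against 18.5 and 14 in Igf2bp2KO where found. Both Prmt6KO lists held all 32, and the Igf2bp2KO lists held 26 and 23. Its widest member (chr11:3183755-3197126, 13372 bp) held 64 and 49 fragments in WT and 45 and 49 in Prmt6KO, against 56 and 53 in Igf2bp2KO, so its libraries overlapped across genotypes.

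The cluster at Prl2c3, a gene of the placental prolactin family on chromosome 13, was as large, but Igf2bp2KO held few of its members. Its 32 members (chr13:12773199-12943364) had WT medians of 10 and 11 fragments, with no summit above 15 and 14. Prmt6KO held 30 and 32 of them at medians of 4 and 9 fragments. Igf2bp2KO replicate 1 held 0 and replicate 2 held 7, between 8 and 15 fragments. The median lower WT summit of the cluster was 10 fragments. All members of 9 to 11 fragments were found at 30.4% and 31.3% in Igf2bp2KO. Whether the cluster departs from that height class was not tested. The member chr13:12854817-12855132, with 12 and 12 fragments in WT and 5 and 11 in Prmt6KO, was in neither Igf2bp2KO list.

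A cluster on chromosome 1 covered the Sp100 family genes Sp110 and Sp140 and the predicted genes Gm7592, Gm2427 and Gm38510 (30 members, chr1:85004849-85631586). Its WT medians were 10 and 9.5 fragments. Prmt6KO held 28 and 30 of the members, with medians of 7 and 8.5, and Igf2bp2KO held 12 and 8, with medians of 12 and 10. The member at the end of Sp110 (chr1:85610644-85611007) held 12 and 12 fragments in WT, 4 and 12 in Prmt6KO, and was absent from Igf2bp2KO. The member in C130026I21Rik and Gm38510 (chr1:85252406-85253724) held 15 and 13 in WT and 14 and 11 in Prmt6KO, and was also absent from Igf2bp2KO. Of the 4 genes of the Sp100 family on these chromosomes, Sp110 and Sp140 were at members.

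The second cluster of chromosome 1 ran over the Ugt1a genes, which encode enzymes that attach glucuronic acid to bilirubin and drugs, and over Mroh2a, Hjurp and Trpm8 (17 members, chr1:88211237-88309651). All 9 Ugt1a genes, which share their final exons, were within 1 kb of a member, and 4 members accounted for them. Prmt6KO held 17 and 16 of the 17 members and Igf2bp2KO held 11 and 11. WT medians were 13 and 10 fragments, Prmt6KO medians 8 and 11, and Igf2bp2KO medians 13 and 11. The member over the Hjurp start (chr1:88277579-88280219) held 15 and 9 fragments in WT and 7 and 8 in Prmt6KO, against 13 and 10 in Igf2bp2KO. That at the Trpm8 start (chr1:88306578-88307388) held 15 and 9, 8 and 11, and 15 and 13. In fragments, the knockout values outside the WT range were the 7 and 8 of Prmt6KO at Hjurp and its 8 at Trpm8, and the Igf2bp2KO values lay within it. As multiples of each list's own background, Prmt6KO was within the WT range at Hjurp, at 9.5 and 6.62 against 10.3 and 6.26. At Trpm8 it was at 10.9 and 9.1 against 10.3 and 6.26, so the 8 fragments stood above WT by that measure.

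The other large clusters were at Gm5373 on chromosome 8 and at Sprr2a1 and Sprr2a2 on chromosome 3. Prmt6KO held 22 and 22 of the 22 members at Gm5373 (chr8:71802184-71859591), and Igf2bp2KO held 12 and 13. The Sprr2a genes encode proteins of the cornified envelope of skin. Of the 16 members there (chr3:92221073-92279300), Prmt6KO held 15 and 16 and Igf2bp2KO held 2 and 2. The WT medians were 13.5 and 10 fragments, against 13 and 10 in the Ugt1a cluster. The highest WT summits were 21 and 12 fragments, against 18 and 14 there. Why the Igf2bp2KO shares of the 2 clusters differed was not tested. Smaller clusters lay at Tmem267 on chromosome 13 and at Duxf3, which encodes a transcription factor of the early embryo. Prmt6KO held 11 and 11 and Igf2bp2KO 10 and 9 of the 11 members at Tmem267 (chr13:119491954-119617170). At Duxf3 (8 members, chr10:58221479-58239741) Prmt6KO held 8 and 8 and Igf2bp2KO held 8 and 4.

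**Figure D4:**
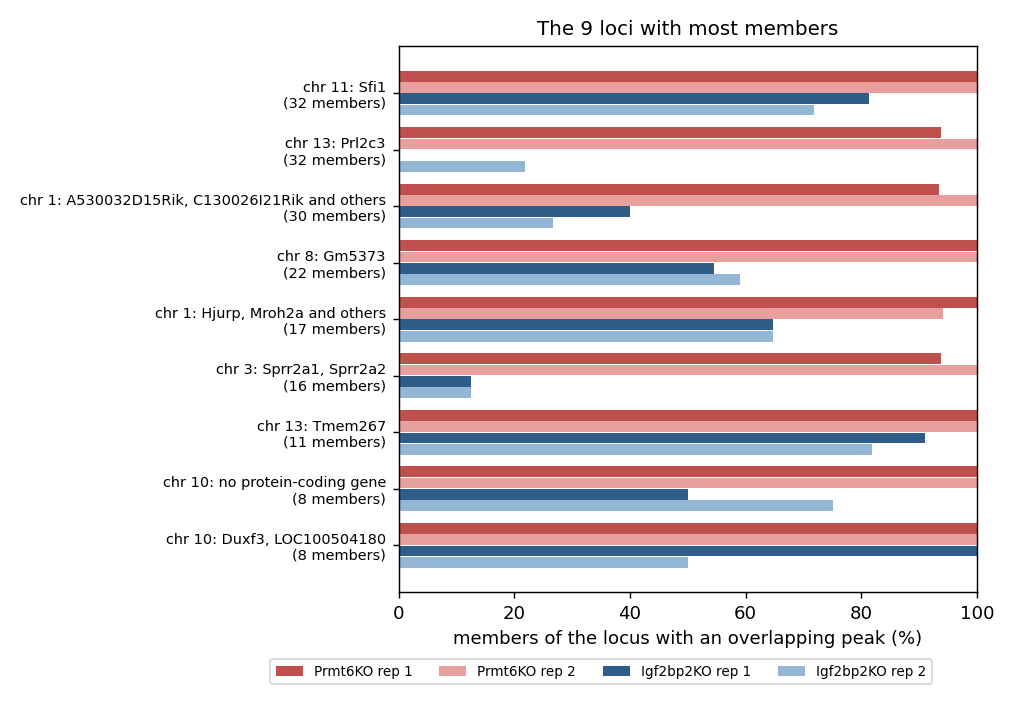
Share of the members of each of the 9 loci with most members (rows, named by chromosome and protein-coding genes that a member overlaps) that had an overlapping peak in the 4 knockout libraries (%, bars). Prmt6KO bars are near 100% at each locus, while Igf2bp2KO bars run from 0 of 32 members at Prl2c3 to 8 of 8 at Duxf3, both in replicate 1.

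The tallest 4 members held 214 to 360 fragments in every library of all 3 genotypes. The tallest (chr9:35304874-35305734), in the long noncoding RNA gene Gm33838, held 360 and 343 fragments in WT and 306 and 359 in Prmt6KO, against 347 and 337 in Igf2bp2KO. The member chr14:19415569-19419701 held 305 and 278, 240 and 301, and 286 and 272. The widest of all, chr9:2999945-3038641 (38697 bp), held 302 and 270, 238 and 294, and 264 and 247, and chr12:3109709-3110230 held 238 and 230, 214 and 237, and 234 and 226. The widest lay at the microRNA gene Mir101c, and the members on chromosomes 14 and 12 had no gene of the table within 1 kb. In these 4 members the Prmt6KO replicate 1 value in fragments was the lowest of the 6, and replicate 2 lay among the other libraries. As a multiple of each list's own background the order was reversed, with Prmt6KO replicate 1 the highest of the 6. It stood at 415, 326, 323 and 291, against 246, 209, 207 and 163 in WT replicate 1. Prmt6KO replicate 2 was next, at 297, 249, 243 and 196.

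Below them came members in named genes. In Chl1, which encodes a neural cell adhesion molecule, the member chr6:103649019-103649640 held 166 and 164 fragments in WT and 116 and 159 in Prmt6KO, against 156 and 169 in Igf2bp2KO. In Vps45, a gene of vesicle trafficking, the member chr3:96044520-96045010 held 72 and 66, 31 and 52, and 46 and 43. In Aida, whose product binds axin, the member chr1:183299077-183299670 held 101 and 50, 61 and 81, and 73 and 75. The intergenic members chr15:75085360-75087103 (183 and 126, 128 and 175, 141 and 158) and chr7:145340871-145341478 (94 and 64, 33 and 62, 51 and 67) completed the range. Vps45 was the one member among these 5 with both values of each knockout below both WT values. As a multiple of each list's own background too, Vps45 was lower in both knockouts, at 49.3 and 45.9 in WT and 42.1 and 43.0 in Prmt6KO, against 31.7 and 32.2 in Igf2bp2KO.

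The member over the 18S ribosomal RNA related sequence Rn18s-rs5 (chr17:39842883-39848914) held 110 and 76 fragments in WT and 107 and 179 in Prmt6KO, against 79 and 62 in Igf2bp2KO. At the end of Lars2, which encodes the mitochondrial leucyl-tRNA synthetase, the member chr9:123461801-123462242 held 70 and 26, 43 and 95, and 37 and 29. In both, counted in fragments, Prmt6KO replicate 2 was the highest of the 6 libraries and Prmt6KO replicate 1 lay within the WT range. As multiples of each list's own background, both Prmt6KO libraries lay above both WT libraries at both members. Rn18s-rs5 stood at 145 and 148 in Prmt6KO against 75.3 and 52.8 in WT, and Lars2 at 58.4 and 78.6 against 47.9 and 18.1. By this measure the same order held at the 4 tallest members and at Chl1 (158 and 132 against 114 and 114). It also held at chr15:75085360-75087103 (174 and 145 against 125 and 87.6). It did not hold at Vps45, Aida or chr7:145340871-145341478. The order was thus not particular to Rn18s-rs5 and Lars2. Members in Zc3h7a, a CCCH zinc finger gene (chr16:11143901-11144378), and in the overlapping genes Cmss1 and Filip1l (chr16:57391136-57391789) were chosen after their values were seen. They held 61 and 25, 56 and 120, and 42 and 32 fragments in Zc3h7a, and 48 and 24, 60 and 99, and 21 and 28 in Cmss1. Within each list, both ranked higher in both Prmt6KO libraries than in the other 4 lists, as did Lars2. Among the 107 members found in all 6 lists, ranked among the 126 regions so found, 10 ranked higher in both Prmt6KO lists than in the other 4 (9.35%, against 8.73% of all 126) and 6 lower (5.61%, against 4.76%). For Igf2bp2KO, 6 ranked higher (5.61%, against 6.35%) and 8 lower (7.48%, against 6.35%). The 126 regions include the 107 members, and only 19 other regions stand beside them, so nothing is read from these shares.

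**Figure D5:**
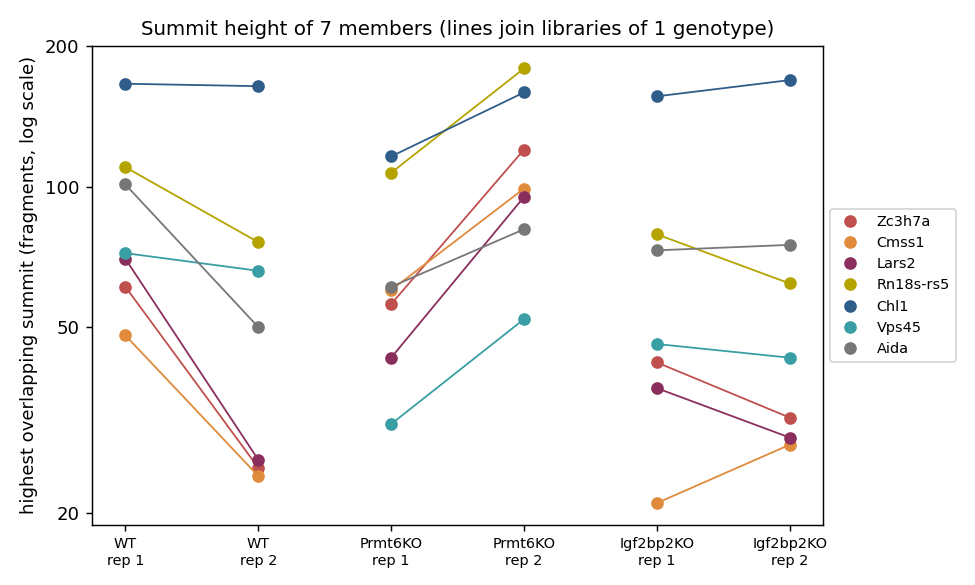
Highest overlapping summit (fragments, log scale) of 7 members in the 6 libraries, with lines joining the 2 libraries of a genotype. Chl1 stays between 116 and 169 fragments in all libraries, while Zc3h7a, Cmss1 and Lars2 stand at 120, 99 and 95 in Prmt6KO replicate 2 and at 25, 24 and 26 in WT replicate 2.

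Across the 107 members in all 6 lists, heights had a Spearman correlation of 0.78 between the WT libraries, 0.82 between the Prmt6KO libraries and 0.84 between the Igf2bp2KO libraries. Pairs from different genotypes ranged from 0.73 to 0.86, a range that holds the values within genotypes. The WT heights chose the members, and the lists differ in their lowest summits. The correlations thus cannot tell whether libraries of 1 genotype are more alike than libraries of 2. These points share clusters and are not independent, so the values are a description. A member that was tall in one genotype was thus mostly tall in the other genotypes too, among these 107.

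Few members were missing from every knockout list. In all 4 lists, 3 members were missing (0.943%, against 68.5% of all WT replicate 1 peaks). They lay in Cep112, a centrosomal protein gene (chr11:108446903-108447106, 9 and 9 fragments in WT), in Sirpb1c, of the signal regulatory protein family (chr3:15820275-15820789, 9 and 12), and between genes at chr5:94332962-94333261 (12 and 13). The Cep112 member, at 204 bp, was also the narrowest of the 318. Of the 106 members in both Prmt6KO lists and no Igf2bp2KO list, the tallest was chr16:98107535-98107799 with 22 and 19 fragments in WT and 3 and 7 in Prmt6KO. Next came 3 members with a lower WT summit of 13, namely chr16:3252565-3252958 (13 and 13 in WT, 5 and 5 in Prmt6KO), chr17:29106146-29106880 (13 and 14, then 2 and 5), both between genes, and the member in C130026I21Rik and Gm38510 given above (15 and 13, then 14 and 11). Over the 106, Prmt6KO summits had medians of 5 and 8 fragments, and 16 members held 8 or more in both Prmt6KO lists, which is at or above the lowest summits of the Igf2bp2KO lists. The highest of those, chosen after their values were seen, were chr6:49236384-49236719, between genes, with 25 and 11 fragments in WT and 19 and 38 in Prmt6KO, and a member in Gphn, the gene of the synaptic scaffold gephyrin (chr12:78350837-78351173), with 20 and 11 in WT and 16 and 30 in Prmt6KO.

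By the position of their summit, 49 members (15.4%, Wilson 95% interval 11.9 to 19.8) lay within 1 kb of a gene start or end, where 5.08% of all WT replicate 1 peaks did and such windows make up 6.36% of the chromosomes compared. Gene bodies held 37.1% (43.4% of all peaks, 45.5% of the chromosomes), and 47.5% lay between genes (51.5% and 48.1%). With 1 tallest member taken per locus, 12 of 119 (10.1%) were at a gene end, 34 in a gene body and 73 between genes. The gene table has no exons, so exon and intron were not told apart. Members at the ends of protein-coding genes numbered 34 by overlap. Among them, both ends of Gm32584 within D5Ertd579e on chromosome 5 had a member (chr5:36630368-36630843 and chr5:36660861-36661632). The first held 45 and 43 fragments in WT and 18 and 40 in Prmt6KO, against 40 and 54 in Igf2bp2KO, and the second held 38 and 36, 11 and 26, and 22 and 35.

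Genes within 1 kb of a member numbered 99, of which 60 are protein-coding and 19 carry pseudogene symbols, and 141 members had no gene that close. Outside the left-out segments that is 0.218% of 45436 gene symbols. Predicted genes named Gm and a number, the commonest kind of symbol, had 37 of 19504 genes (0.19%) at 77 members. Among the repeated gene families of the mouse, counted outside the segments, 0 of 1080 olfactory receptor genes, 0 of 617 vomeronasal receptor genes, 0 of 412 zinc finger genes and 0 of 22 major urinary protein genes were at a member. Histone genes (0 of 76), Hox genes (0 of 33), Prmt genes (0 of 8), Igf2bp and Ythd genes (0 of 8) and a list of regulators of blood formation such as Runx1, Meis1 and Gata2 (0 of 18) also had none. With 0.218% of all genes at a member, a count of 0 in lists as short as these says nothing of the families, and the longer families were not tested. Of 353 ribosomal protein genes and pseudogenes, 1, the pseudogene Rpl19-ps1, was at 2 members.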

How the data were processed

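The 9 samples were 6 H3R2me2a ChIP-seq libraries and 3 input libraries of mouse bone marrow cells, and each ChIP library has its own peak list. Groups came from the sample titles. The submitters' processing notes give the build mm10 and list MACS2 2.1.0, HISAT2, bcl2fastq 2.17, bedtools and Trim Galore with no settings. How duplicate reads were treated and the reads per library are not given in the sources used here, so depth is known only as the background per list. In the deposited lists each peak has a summit pileup (a coverage signal in fragments), a fold enrichment (a ratio of pileup plus 1 to background plus 1) and −log10 p-values and q-values of the authors' peak caller, per the file headers. These scores are the authors' and describe peaks within their own list. Igf2bp2KO pileups, multiples of 0.277 and 0.302, were divided by these steps to give fragments. The background, 1 value per list, was solved from the pileup and fold enrichment.

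Members were found by their rule in Python 3.11.15 (NumPy 2.4.6, pandas 2.3.3, SciPy 1.17.1), and overlap meant at least 1 shared bp. The overlap code was tested on simulated data. Each library gave 1 share, and knockouts were compared by two-sided exact permutation of 2 libraries against 2. Shares carry Wilson 95% intervals. Genes came from the RefSeq gene table of GRCm38.p6, which gives no strand or exons, and promoter windows were compared with blastn 2.17.0. The sequence of the members beyond promoter windows was not analysed here.

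Regions named were the 12 tallest by their lower WT summit, members absent from all 4 knockout lists, the 6 tallest in both lists of 1 knockout and in neither of the other, up to 12 at ends of protein-coding genes, and the 4 narrowest and 4 widest. Alternatives covered the overlap, the thresholds, the left-out segments, each library in turn, replicate numbers and gene windows. The members and lists were chosen with earlier results of these data known. The comparison with unreplicated peaks by width, the sign-flip test, the ranks, the loci at 200 kb and the promoter copies and repeats were added after the data were seen.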

Additional observations from a re-analysis of the deposited data

How the results depend on the processing

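By the mean over the libraries of a group, more members were found in Prmt6KO than in Igf2bp2KO under every alternative run. The shares moved, and with 2 libraries a group no setting can give a p below 0.333. The means with any peak counted were 95.6% in Prmt6KO and 46.9% in Igf2bp2KO. They became 83.3% and 26.9% with 50% of the member covered, 76.1% and 44.0% with a knockout summit inside the member, 99.0% and 81.2% at 12 fragments in both WT lists (101 members), and 65.3% and 12.7% at a q of 0.05 or below. They were 93.4% and 51.4% with members within 10 kb counted as 1 (145 regions), and 87.7% and 30.4% for members under 400 bp, an alternative chosen after seeing the data. Igf2bp2KO went to 48.9% with members taken from WT replicate 2 (312) and to 52.5% with the segments kept (754). At 9 fragments the means were 50.2% in Prmt6KO and 46.1% in Igf2bp2KO. Prmt6KO replicate 1, at 35.8%, then lay below both Igf2bp2KO libraries. Leaving out a knockout library was not tried at that setting. Leaving out a WT library, which drops the demand for replication, gave 32.9% to 37.6% in Prmt6KO and 4.74% to 9.46% in Igf2bp2KO. At 6 times the own background, 76.3% and 46.1% became 65.4% and 26.6% with 50% covered, 92.6% and 80.7% at 12 fragments, 78.2% and 51.6% with segments kept, 93.4% and 46.9% at 4 times, and 61.0% and 37.6% at 8 times. With 1 knockout library left out, the shares ranged from 94.7% to 96.5% and 45.9% to 47.8% with any peak, and from 76.1% to 76.4% and 45.6% to 46.5% at 6 times. Without a WT library the latter were 11.6% to 18.7% and 4.66% to 9.32%. High peaks of WT replicate 1 followed into WT, Prmt6KO and Igf2bp2KO went from 19.7%, 32.9% and 4.74% to 73.6%, 82.0% and 40.1% at 12 fragments and to 29.4%, 42.3% and 11.8% with segments kept. Those of WT replicate 2 went from 30.1%, 37.6% and 9.46% to 90.8%, 93.4% and 56.9%, and to 43.9%, 49.6% and 17.8%. Members absent from both Prmt6KO lists numbered 4, then 16 with 50% covered, 1 at 12 fragments, 7 with segments kept, and 11 to 17 with 1 Prmt6KO library left out. Those absent from Igf2bp2KO numbered 127, then 203, 12 and 250. The share at gene ends was 15.4%, 25.2% with windows of 2.5 kb and 8.49% for protein-coding genes. Gene bodies fell to 31.8% with the wider windows, and 58.5% lay between protein-coding genes. Beyond the settings' own construction, the cause was not tested. Of 72 shares and counts under an alternative, 57 moved beyond the tolerance set for them (the spread between libraries, the Wilson interval or 1.5 times a count) and 15 did not. All 28 differences between the knockouts kept their sign, but they ranged from 4.09 to 57.2 points with any peak and from 6.98 to 46.5 at 6 times the background.

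The replicate numbers are shared across genotypes in the titles but nothing says they pair the libraries, and same-numbered deviations correlated at -0.25, -0.25 and 0.32 over the 107 members in all 6 lists. With the replicate number as a block, the difference between the knockouts was 48.7 points with any peak and 30.2 at 6 times the background (exact sign-flip permutation p = 0.5, the smallest that 2 pairs allow).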

Other observations

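High replicated WT peaks also occurred outside the chromosomes and segments of the rule. The left-out segments held 436 WT replicate 1 peaks that otherwise met it, of which 412 and 429 were found in Prmt6KO, against 226 and 268 in Igf2bp2KO. Those on chromosome 8 numbered 241, with 233 and 239 in Prmt6KO, against 131 and 152 in Igf2bp2KO, and those on chromosome 4 numbered 140, with 124 and 136, then 46 and 69. On chromosome X there were 38, of which Prmt6KO held 35 and 38 and Igf2bp2KO 11 and 24. Contigs not placed on a chromosome held 50, with 47 and 47 in Prmt6KO, against 23 and 15 in Igf2bp2KO. The mitochondrial genome held 0. What share of all WT replicate 1 peaks in these places was found in the knockouts was not counted, so nothing is read from these counts.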
